A study of Mus musculus with 4 samples.

Results

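CD8 T cells of mouse bone marrow were taken from the single-cell data as 780 of 49567 kept barcodes. A barcode was kept if it had 200 or more genes with a count and no more than 10% of its counts from mitochondrial genes. The cells were chosen by their own counts: a CD8 T cell had at least 2 counts over the CD3 chain genes Cd3d, Cd3e and Cd3g, at least 1 count of the coreceptor chains Cd8a and Cd8b1, and no count of Cd4. Cells with more than 1 count of the B cell gene Cd79a, with 50 or more counts of Hba-a1 and Hbb-bs (hemoglobin), or with 2% or more of their counts in the neutrophil genes S100a8 and S100a9 were left out. Values for the 4 libraries are given throughout in the order WT replicate 1, WT replicate 2, YAP1 heterozygote replicate 1 and YAP1 heterozygote replicate 2, called the library order. The gate gave 167, 222, 133 and 258 cells. All counts are unique molecular identifiers (UMIs), which count captured mRNA molecules.

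CD8 T cells recognise peptides on MHC class I molecules through the T cell receptor and the CD8 coreceptor, and kill infected or altered cells. Naive cells circulate through lymphoid organs under the chemokine receptor Ccr7 and the sphingosine phosphate receptor S1pr1, and rest under factors such as Lef1, Tcf7 and Klf2. Memory cells carry the interleukin-2 and interleukin-15 receptor chain Il2rb and the chemokine receptor Cxcr3, hold cytotoxic and chemokine transcripts ready, and bone marrow is known as a site where they are maintained.

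The study compared nucleated bone marrow cells of 10-week-old WT mice and of YAP1 heterozygote mice, with 2 libraries of each genotype. YAP1 is the transcriptional coactivator that the Hippo kinase pathway restrains, and the series concerns its binding to the myosin heavy chain MYH9 in platelet formation. Cells were flow-sorted and made into droplet libraries of mRNA 3′ ends (10x Genomics). The gate of the sort, the YAP1 allele, the number of animals behind a library and whether any mouse was treated are not given in the sources used here, so p-values measure the spread between these libraries.

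The CD8 T cells held 853148 to 1400302 UMIs per library in all, and the median cell held 4680 to 5302 UMIs. By the gate each cell had a CD8 count, and 665 of the 780 cells had one of Cd8b1. Outside the gate, Cd8a was found in 0.17% of 10019 B cells of these libraries. The replicates 1 of both genotypes expressed the Y-linked gene Ddx3y and the replicates 2 expressed Xist, so replicate number and the sex of the cells cannot be told apart. No CD8 T cell barcode occurred in more than 1 library, although 286 kept barcodes did.

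The border of the gate crossed few cells on the CD3 and contamination limits and many on the coreceptor. Of 1629 cells that met the CD3 and other limits, 707 had no coreceptor count, 137 had Cd4 alone (called CD4 T cells below) and 5 had both. Within the gate 24 cells had exactly 2 CD3 counts and 109 had exactly 1 CD8 count. Just outside, 7 cells failed only through a single CD3 count, 28 only through Cd79a, 3 only through hemoglobin and 47 only through S100a8 and S100a9. RNA of other lineages was present within it: 43 cells had at least 3 counts summed over H2-Aa, H2-Ab1, H2-Eb1, Cd209a, Siglech, Ly6d, Mcpt8, Prss34, Car1, Car2, C1qa, C1qb, Csf1r, Elane and Mpo (genes of antigen-presenting cells, basophils, erythroid cells, macrophages and granulocyte progenitors, picked after the data were seen), between 5.26% and 5.81% of the CD8 T cells of a library.

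CD8 T cells had overlapping shares of the kept cells in the 2 genotypes. The gate of the sort is not given, so these are not shares of the whole marrow. The share of kept cells was 1.29%, 1.89%, 1.21% and 1.87% in library order. The groups overlapped, and the libraries with the same replicate number lay closest to each other. The means were 1.59 ± 0.425% in WT and 1.54 ± 0.463% in YAP1 heterozygote marrow (SD, n = 2 each), a difference of -0.048 percentage points (exact permutation test over libraries, two-sided, p = 0.667). With 2 libraries a group this exact permutation test cannot go below p = 0.333, here and for the memory share.

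**Figure D1:**
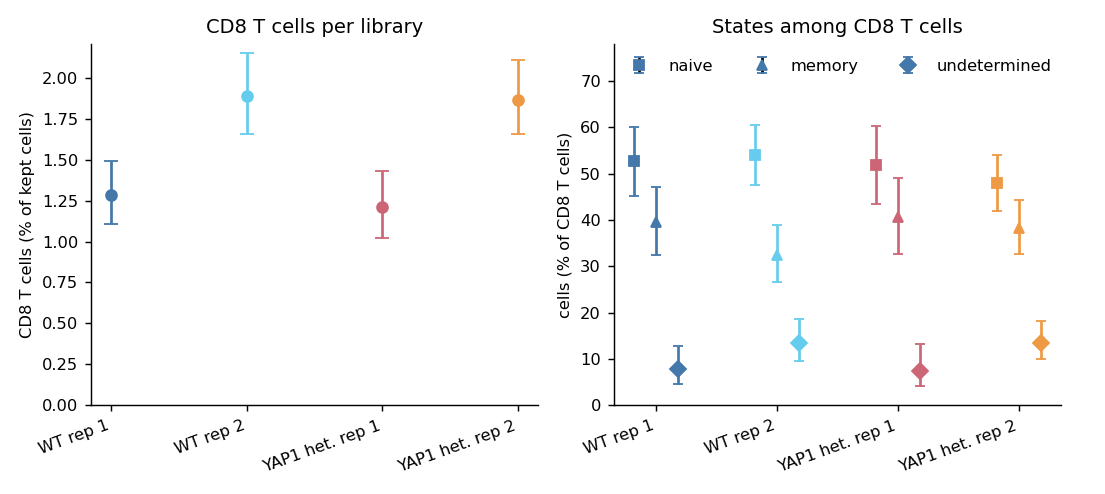
CD8 T cells as a percent of kept cells (left) and naive, memory and undetermined cells as a percent of CD8 T cells (right), 1 point per library with Wilson 95% intervals for counting error. CD8 shares pair by replicate number, near 1.2% and 1.9%, and memory shares run from 32.4% to 40.6%.

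Naive and memory cells both made up a large share of the CD8 T cells in each library. A cell's state was set by counting detected genes of 2 lists of 6: Ccr7, Lef1, Igfbp4, Actn1, Satb1 and Bach2 for naive cells, and Ccl5, Il2rb, Cxcr3, Eomes, Nkg7 and Id2 for memory cells. A cell with at least 2 genes of a list, and more of it than of the other list, took that state. In all, 401 cells were naive, 291 memory and 88 undetermined. The states are ranges of a score, and 241 cells lay at or within 1 gene of the border. Whether they are separate types was not tested.

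Memory cells were 39.5%, 32.4%, 40.6% and 38.4% of CD8 T cells in library order. WT replicate 2 was the lowest, and the groups overlapped. The means were 36.0 ± 5.01% and 39.5 ± 1.58% (SD, n = 2 each), 3.51 percentage points apart (exact permutation test, two-sided, p = 0.667). When each cell was thinned to 1500 UMIs the shares were 39.8% and 39.4% in WT and 42.9% and 40.6% in YAP1 heterozygote libraries. There the groups did not overlap (exact permutation test, two-sided, p = 0.333). Other settings that separated the groups are given under the dependence on processing. Naive cells made up 53.4 ± 0.961% of WT and 49.97 ± 2.70% of YAP1 heterozygote CD8 T cells. The difference in memory shares was -0.0342 percentage points without WT replicate 2, and 0.84 points when cells with γδ T cell receptor or Zbtb16 counts were left out. Markers of γδ and innate-like T cells, 8 of 12 detected with Trdv4, Sox13 and Il17a among those at 0, summed to 49.3, 59.0, 84.4 and 90.7 UMIs per 1e6 in library order, higher in both YAP1 heterozygote libraries, and their part in the memory share beyond that was not tested.

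**Figure D2:**
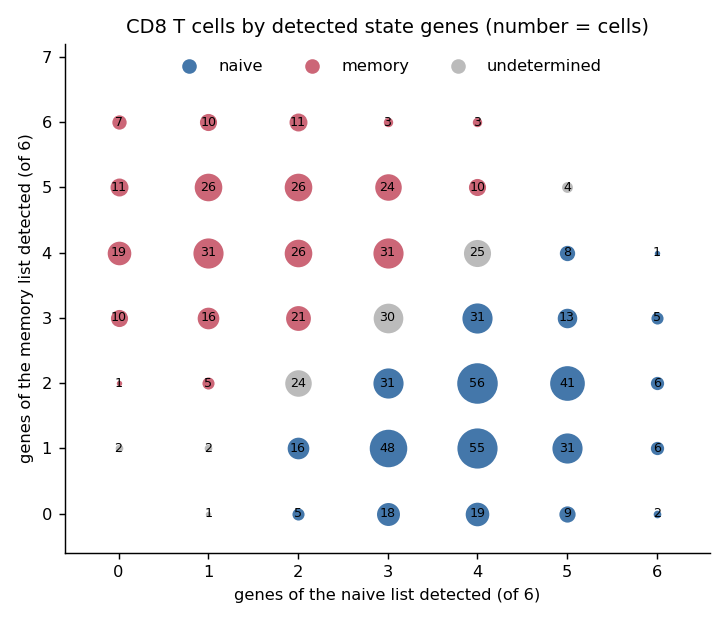
The 780 CD8 T cells by the number of naive-list genes (horizontal axis, 0 to 6) and memory-list genes (vertical axis, 0 to 6) detected in each, with the number of cells printed and shown as area. Most cells lie toward one list or the other, and 88 cells in grey have no state.

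Memory cells differed from naive cells by a wide set of cytotoxic and NK receptor genes that the state lists did not hold. Since the states were set from these cells' own counts, this is a description with no test. The receptor gene Klrk1 (NKG2D) stood at 8.84, 10.2, 0 and 1.71 UMIs per 1e6 (CPM) in naive cells, in library order. In memory cells of the same libraries it stood at 207, 415, 238 and 314 CPM. Every memory value lay far above every naive value.

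Other killer cell receptors followed that order. Klre1 averaged 193 ± 32.0 CPM in memory and 2.66 ± 2.10 CPM in naive cells (SD, n = 4 libraries), Klrc2 173 ± 32.3 and 5.04 ± 5.70, and Klrc1 (NKG2A) 121 ± 28.4 and 2.07 ± 1.81. The chemokine genes Ccl4 and Xcl1 stood at 299 ± 74.0 and 213 ± 53.1 CPM in memory against 13.3 ± 10.0 and 8.58 ± 4.65 CPM in naive cells. The integrin chain Itgb1, part of the VLA-4 adhesion receptor, was 2.64 ± 0.24 higher on the log2 scale (prior count 2), and Il18rap, a chain of the interleukin-18 receptor, 3.31 ± 0.782 higher.

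Granzyme A varied widely between the libraries within memory cells. Gzma, a granule protease, stood at 75.8, 1657, 428 and 164 CPM in memory cells in library order, and was at or near 0 in naive cells. Its UMIs came from 7, 8, 7 and 11 CD8 T cells, and the cell with the most held 34.4% to 43.2% of a library's UMIs. Gzmb, the main granzyme of activated killer cells, was found in 29 of 291 memory cells (9.97%, Wilson 95% interval 7.03 to 13.9%) and in 1 of 401 naive cells, against 0.269% of B cells. Median depths were 5553 UMIs in memory cells, 4573 in naive cells and 3081 in B cells. Ccl5, by contrast, was detected in 95.9% of memory cells, 10.2% of naive cells and 1.63% of B cells, and it belongs to the state rule. Other genes of the rule separated the states less: Nkg7 was detected in 98.6% of memory and 74.1% of naive cells, and Lef1 in 45.4% and 92.0%.

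Naive cells carried genes of recirculation and quiescence. Dapl1 was 334, 253, 452 and 376 CPM in naive cells in the library order above and 13.1, 57.3, 35.5 and 73.3 CPM in memory cells, with no overlap. Il6ra, the interleukin-6 receptor chain, averaged 130 ± 18.4 CPM in naive and 31.7 ± 6.46 CPM in memory cells. S1pr1, the exit receptor for lymphoid tissue, averaged 244 ± 90.1 and 113 ± 31.7 CPM. Klf2, the transcription factor that drives S1pr1, averaged 1108 ± 190 and 656 ± 20.02 CPM. The gut chemokine receptor Ccr9 and the integrin Itgae, both named after their values were seen, averaged 91.1 ± 21.8 and 23.8 ± 2.88 CPM in naive cells and 4.78 ± 9.56 and 1.05 ± 1.28 CPM in memory cells.

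Cd44, the classical surface marker of memory, averaged 49.04 ± 8.25 CPM in naive and 116 ± 8.17 CPM in memory cells. Ly6c2, which memory cells of this kind express, averaged 390 ± 160 and 1377 ± 81.5 CPM. The coreceptor chain Cd8b1, used by the gate, was detected in 94.8% of naive and 72.2% of memory cells, while Cd8a was detected in 77.3% and 87.3%. In all, 86 CD8 T cells had counts of γδ T cell receptor constant genes or of Zbtb16, in numbers of 13, 29, 14 and 30 per library. Of them 59 were in the memory state. Trdc was detected in 22 and Zbtb16 in 4 of the 780 CD8 T cells, so γ chain genes alone picked most of the 86. Whether these are innate-like T cells was not tested.

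Over lists of known genes, leaving out those the gate or the state rule used, 22 of 24 effector and cytotoxic genes were higher in memory in all 4 libraries, with a median difference of 2.06 on the log2 scale. For all 7885 genes with at least 10 CPM in 1 state the share higher in all 4 libraries was 18.4%, the share lower was 10.1% and the median was 0.08. Of 18 naive and quiescence genes 15 were lower in all 4 (median -0.73). Cell cycle genes were higher in memory in 12 of 20 (median 0.69), and MHC class I presentation genes in 10 of 14 (median 0.25). T cell receptor signalling genes were higher in 14 of 24 (median 0.30). Of 17 genes in the NR4A, EGR and DUSP list, which antigen receptor signals induce, 7 were higher and 1 was lower (median 0.46).

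**Figure D3:**
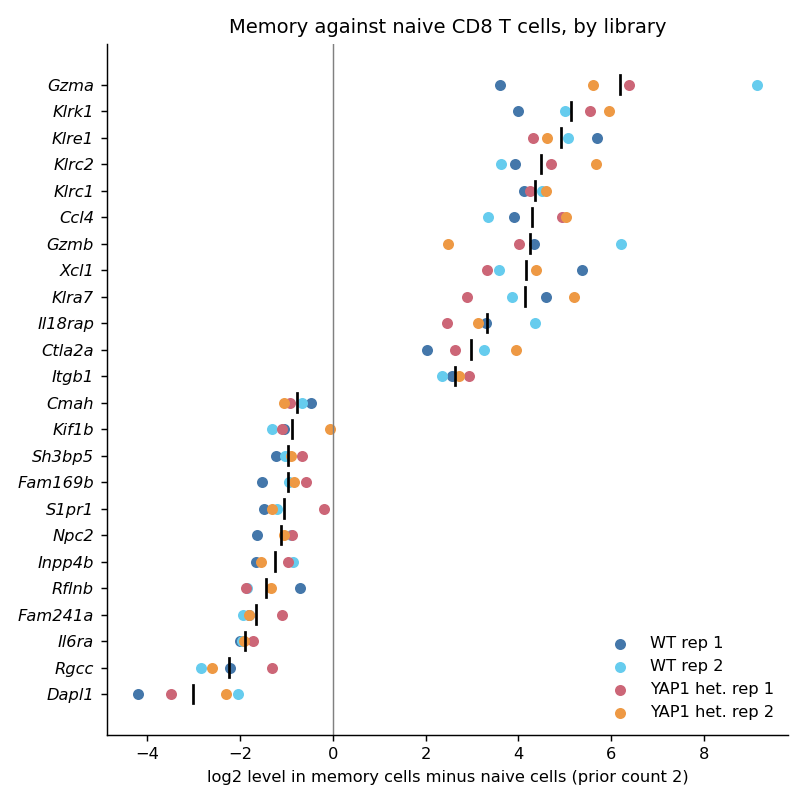
Log2 difference in level between memory and naive CD8 T cells (prior count 2), 1 point per library and a bar at the mean, for 12 genes higher and 12 genes lower in memory that the gate and state rule did not use. Gzma has the widest spread, and Itgb1 and Il6ra have narrow ones.

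Between the genotypes, edgeR's quasi-likelihood test on UMIs summed over the CD8 T cells of each library called 4 of 7899 genes at a Benjamini-Hochberg adjusted p under 0.05, all lower in YAP1 heterozygote cells. That is 0.0506% of tested genes lower and 0% higher. The 4 were Vps37b, H2-Eb1, H2-Aa and Cd74. The median log2 difference over all genes was 0.01.

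Vps37b fell in YAP1 heterozygote CD8 T cells. This gene (ENSMUSG00000066278, chromosome 5, 124004641 to 124032270, minus strand, GRCm38) encodes a subunit of the ESCRT-I complex, which sorts ubiquitinated membrane proteins into endosomal vesicles. It stood at 728, 484, 197 and 238 CPM in library order. The lower WT library was above both YAP1 heterozygote libraries by more than the spread within either group. Its log2 fold change was -1.49 (SE 0.197, edgeR adjusted p = 0.0392; 4.15e-08 by DESeq2).

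Many cells carried the Vps37b difference. Its UMIs came from 152 of 167, 191 of 222, 85 of 133 and 164 of 258 cells, and no cell held more than 5.36% of a library's Vps37b UMIs. Its edgeR adjusted p was 0.697 and 0.344 when the first or the second YAP1 heterozygote library was left out and 0.0721 with doublets left out, with log2 fold changes of -1.38, -1.64 and -1.50.

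The MHC class II genes H2-Eb1 and H2-Aa and their chaperone Cd74, which antigen-presenting cells express, fell and had their UMIs in few cells. H2-Aa stood at 147 and 144 CPM in WT and 12.9 and 42.8 CPM in YAP1 heterozygote CD8 T cells (log2 fold change -2.28, SE 0.327, edgeR adjusted p = 0.0466). Its UMIs came from 5, 18, 3 and 10 cells, and 1 cell per library held 44.1% to 83.6% of them. With the top cell of each gene left out, H2-Aa had a log2 fold change of -3.25 (edgeR adjusted p = 0.0561) and Cd74 one of -2.24 (0.0859). Without the 43 cells with RNA of other lineages, which were picked partly by H2-Aa and H2-Eb1 themselves, these 2 genes had too few UMIs to be tested and Cd74 had a log2 fold change of 0.14 (edgeR adjusted p = 1.00), while Vps37b kept -1.46 (edgeR adjusted p = 0.0111). Of the genes that edgeR called, DESeq2 called Vps37b and H2-Eb1 but gave adjusted p of 0.691 for H2-Aa and 0.601 for Cd74. Without YAP1 heterozygote replicate 1 all 3 genes had an edgeR adjusted p of 0.0934. The 8 B cell markers other than these genes, all detected, summed to 268, 346, 338 and 433 CPM in library order, with overlapping groups.

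The number of calls depended on single libraries. Leaving out each in library order gave 37, 111, 0 (361 at an unadjusted p under 0.05) and 4 calls by edgeR, where the single library that remains in 1 genotype takes its spread from the pair.

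In naive CD8 T cells alone, 15 of 5634 genes were called, all lower in YAP1 heterozygote cells: 0.266% of tested genes lower and 0% higher. Of these, 6 were genes of antigen-presenting cells (Cd74, H2-Aa, H2-Ab1, H2-Eb1, H2-DMb1 and Cd209a), carried by few cells as above. The UMIs of H2-Aa, H2-Ab1 and H2-Eb1 were summed over naive cells, without Cd74. A single cell held 278 of the 305 in WT replicate 1 and 286 of the 409 in WT replicate 2. The YAP1 heterozygote naive cells had 6 and 13. The other 9 were Vps37b, Dennd4a, Rgs1, Rgs2, Gpr183, Dusp5, Dusp10, Fosl2 and Icos.

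Vps37b stood at 864, 558, 230 and 256 CPM in naive cells in library order (log2 fold change -1.55, SE 0.204, edgeR adjusted p = 4.15e-05). Dennd4a, an exchange factor that activates a Rab GTPase of vesicle transport, stood at 305, 188, 80.9 and 99.0 CPM (-1.42, SE 0.244, edgeR adjusted p = 0.00304). The groups did not overlap in either gene. Over all genes tested in naive cells 16.4% lay lower in this way and 17.2% higher.

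Among regulators of G protein-coupled receptors, Rgs1 and Rgs2, which shorten the signal of such receptors, both fell. Rgs1 stood at 164, 121, 65.3 and 34.1 CPM (log2 fold change -1.57, SE 0.295, edgeR adjusted p = 0.0069). Rgs2 stood at 254, 167, 47.0 and 92.2 CPM (-1.52, SE 0.269, adjusted p = 0.00415). Gpr183 (EBI2), the receptor for oxysterols that positions lymphocytes in tissue, stood at 183, 143, 70.5 and 56.3 CPM (-1.38, SE 0.255, adjusted p = 0.00624).

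The MAP kinase phosphatases Dusp5 and Dusp10 form a second set. Dusp5, which acts on ERK in the nucleus, stood at 161, 93.5, 26.1 and 47.8 CPM (log2 fold change -1.69, SE 0.323, edgeR adjusted p = 0.00815). Dusp10, which acts on p38 and JNK, stood at 190.1, 99.3, 36.5 and 54.6 CPM (-1.59, SE 0.311, adjusted p = 0.0104). WT replicate 1 was the highest library in each, and both YAP1 heterozygote libraries lay below both WT libraries.

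The AP-1 subunit Fosl2 stood at 88.4, 74.5, 13.1 and 34.1 CPM (log2 fold change -1.67, SE 0.356, edgeR adjusted p = 0.0276). Icos, the inducible costimulatory receptor, stood at 86.2, 71.6, 20.9 and 30.7 CPM (-1.55, SE 0.335, adjusted p = 0.0297). DESeq2 called 6 genes in naive cells, of these 9 only Vps37b (adjusted p = 5.59e-07) and Dennd4a (0.0423). The other 7 kept log2 fold changes of -1.38 to -1.75 by DESeq2, with adjusted p of 0.0658 for Rgs2, 0.247 for Gpr183, Dusp5 and Dusp10, 0.263 for Rgs1 and 1.00 for Fosl2 and Icos. Without the cells with RNA of other lineages 4 genes were called, 3 of them among the 15 (Vps37b, Dennd4a and Gpr183), and 6 of the 15 could not be tested, 4 of which had served to pick the cells left out. The others that lost their call kept log2 fold changes of -1.33 (Rgs1), -1.43 (Rgs2), -1.54 (Dusp5), -1.52 (Dusp10), -1.75 (Fosl2) and -1.66 (Icos), with edgeR adjusted p from 0.0678 to 0.263. Leaving out each library in library order gave 26, 101, 22 and 32 calls. By edgeR, Rgs1 (adjusted p = 0.369) and Gpr183 (0.185) were not called without YAP1 heterozygote replicate 2, Rgs2 (0.0518), Fosl2 (0.357) and Icos (0.238) without YAP1 heterozygote replicate 1, and Dusp10 (0.173) without WT replicate 1.

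In memory CD8 T cells edgeR called 0 of 5133 genes in either direction (0%), with 253 at an unadjusted p under 0.05, and DESeq2 called 0. For the 9 genes above, the memory cells are other cells of the same libraries whose naive cells picked these genes. What all cells of a library share enters both states, so their values are no independent replicate. In 8 of the 9 both YAP1 heterozygote libraries lay below both WT libraries in memory cells, where 14.2% of all tested genes did so (16.2% lay above). The exception was Rgs2, at 288 and 209 CPM in WT and 238 and 113 CPM in YAP1 heterozygote memory cells. Vps37b stood at 630.1, 323, 152 and 199 CPM (log2 fold change -1.44, SE 0.274, edgeR adjusted p = 0.177). Leaving out WT replicate 2 gave an edgeR adjusted p of 1.31e-04, and leaving out the first or the second YAP1 heterozygote library gave 0.0141 and 1.79e-04. Leaving out WT replicate 1 gave 0.232, with a log2 fold change of -0.88.

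Rgs1 was higher in memory than in naive cells of each library, and stood there at 518, 522, 296 and 182 CPM (log2 fold change -1.17, SE 0.230, edgeR adjusted p = 0.177). Icos stood at 102, 45.8, 27.9 and 23.9 CPM (-1.52, SE 0.410, adjusted p = 0.521). The groups did not overlap in either gene, and neither passed the test. Leaving out each library in library order gave 23, 40, 26 and 18 calls in memory cells.

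**Figure D4:**
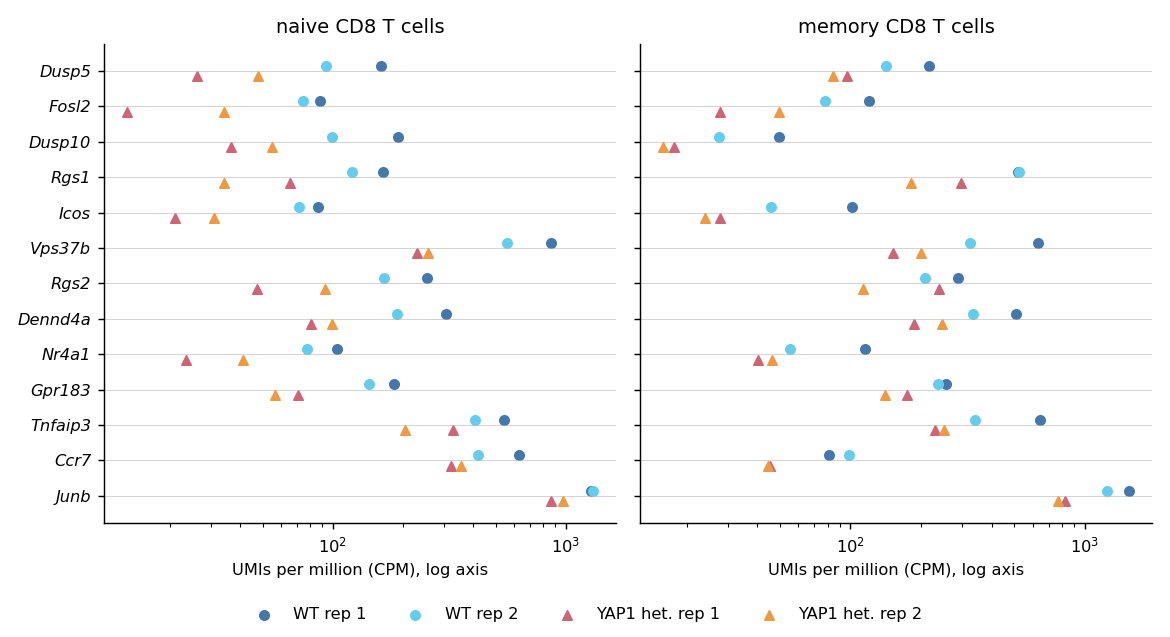
Level in UMIs per 1e6 (log axis) of 13 genes in naive (left) and memory (right) CD8 T cells, 1 point per library, circles for WT and triangles for YAP1 heterozygote. The triangles lie left of the circles in each gene but Rgs2 in memory cells, and 4 of the genes (Tnfaip3, Junb, Ccr7 and Nr4a1) were added after their values were seen.

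The genes that antigen receptor and inflammatory signals induce quickly, and their feedback inhibitors, had many members lower in YAP1 heterozygote CD8 T cells. Over all 7899 genes, 15.6% lay lower in both YAP1 heterozygote libraries than in both WT libraries and 18.6% lay higher. In the NR4A, EGR and DUSP list 9 of 16 tested members lay lower without overlap and 3 higher, and the median log2 difference was -0.48 against 0.01 over all genes. None of the 16 was called over all genes by edgeR, and 11 had an unadjusted p under 0.05. DESeq2 called Rgs1, Dusp5 and Dusp10 among them. The list was chosen with earlier results of these data known, so these counts describe it and are no test.

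Within it the members did not move as one. Nr4a1, a nuclear receptor induced by the T cell receptor, stood at 105, 69.0, 30.5 and 47.8 CPM in all CD8 T cells in library order (log2 fold change -1.10, SE 0.269, edgeR adjusted p = 0.484). Dusp1 and Dusp2, phosphatases of the same family as Dusp5, had log2 fold changes of 0.18 and -0.01, and the kinase gene Pim1 -0.39. Rgs1, Icos, Dusp5 and Dusp10, members that the naive cells called, had -1.19, -1.49, -1.25 and -1.63 in all CD8 T cells (edgeR adjusted p from 0.147 to 0.149). Their DESeq2 adjusted p there was 0.00392, 0.177, 0.0472 and 0.0267.

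The AP-1 and immediate early list had 9 of 20 tested members lower without overlap and 2 higher, with a median of -0.25. Junb, an AP-1 subunit, stood at 1362 and 1272 CPM in WT and 833 and 871 CPM in YAP1 heterozygote CD8 T cells (log2 fold change -0.64, SE 0.115, edgeR adjusted p = 0.147), a difference wider than the spread within either group. DESeq2 gave Junb an adjusted p of 0.00528. Klf6, a zinc finger factor, had a log2 fold change of -0.43 (adjusted p = 0.827). The list was split: its member Fos, named after its values were seen, stood at 455, 538, 613 and 618 CPM in library order.

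In the NF-kB list 7 of 20 tested members lay lower without overlap and 1 higher (median -0.21). Tnfaip3 (A20), a ubiquitin-editing enzyme that ends NF-kB signals, stood at 584 and 404 CPM in WT and 274 and 224 CPM in YAP1 heterozygote CD8 T cells (log2 fold change -1.002, SE 0.190, edgeR adjusted p = 0.149). DESeq2 gave Tnfaip3 an adjusted p of 0.00456 there. In naive cells its log2 fold change was -0.86 (adjusted p = 0.106) and in memory cells -1.04 (adjusted p = 0.441). Nfkbia, which holds NF-kB in the cytoplasm, had -0.33 (adjusted p = 0.977).

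Tnfaip3 and Dusp5, which lay lower, hold a κB motif in the 250 bases before their start in RefSeq (GRCm38.p6), and these windows are shown because the lists above hold NF-kB targets. The motif searched was GGG, any 2 bases, then TTTCC, on both strands. It occurs before 1.65% of 27025 genes in that table. Of the 56 tested members of the 3 lists 45 are in the table and 5 hold the motif: Dusp5, Nfkb2, Nfkbia, Rel and Tnfaip3. All 5 lay lower without overlap, among 25 such members of which 22 are in the table. The AP-1 motif TGANTCA occurs before 7.82% of all genes and before 6 of the 45, and the cyclic AMP response element TGACGTCA before 1.77% and 5 of the 45. Among the 22 lower members in the table, 3 hold the AP-1 motif and 2 the cyclic AMP response element. These letters are a description of the windows, chosen after the values were seen. The 3 lists include the NF-kB list itself, and a part of NF-kB in the lower levels was not tested.

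Capitals mark motif matches. RefSeq gives Tnfaip3 2 windows, and the one shown is chr10:19015411-19015660, minus strand, with an AP-1 match and then a κB match that ends 3 bases before the RefSeq start. GENCODE M21 puts the 5′ end of the gene at 19015657, so that this window lies almost wholly within its gene model. The Dusp5 window is chr19:53528895-53529144, plus strand, with 1 κB match.
Tnfaip3: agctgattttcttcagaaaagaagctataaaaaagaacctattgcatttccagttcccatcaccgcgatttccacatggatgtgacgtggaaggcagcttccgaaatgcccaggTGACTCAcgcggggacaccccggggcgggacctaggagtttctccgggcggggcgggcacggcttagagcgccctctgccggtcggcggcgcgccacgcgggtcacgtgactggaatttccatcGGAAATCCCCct
Dusp5: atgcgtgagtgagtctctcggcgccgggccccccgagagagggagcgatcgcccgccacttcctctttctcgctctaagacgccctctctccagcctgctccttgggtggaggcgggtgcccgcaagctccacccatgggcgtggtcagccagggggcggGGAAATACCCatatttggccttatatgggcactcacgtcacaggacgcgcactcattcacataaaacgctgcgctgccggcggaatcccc

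**Figure D5:**
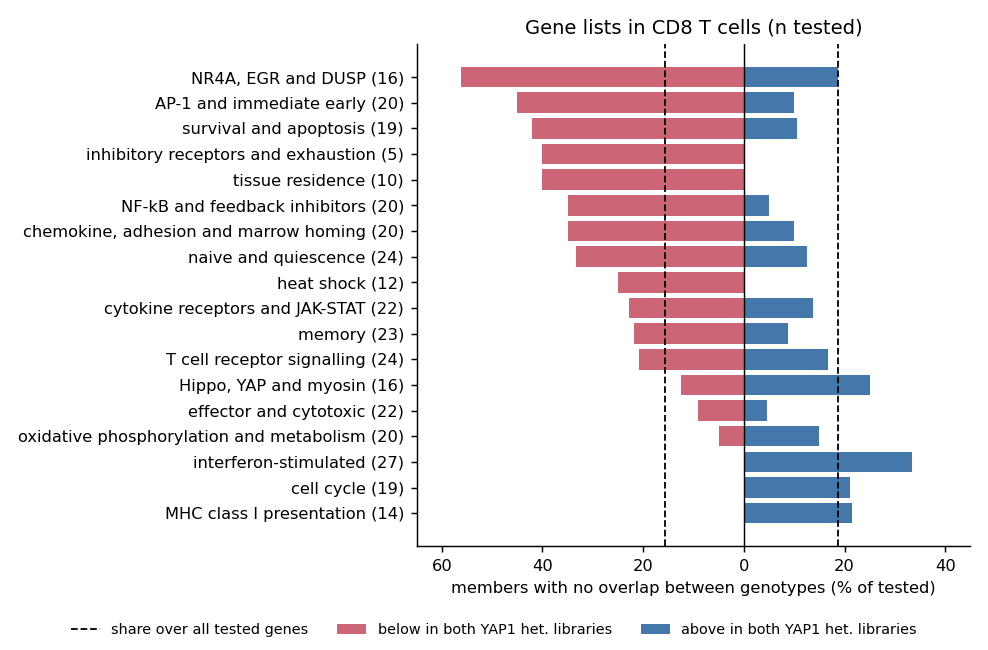
Percent of tested members of each gene list that lay below (left) or above (right) in both YAP1 heterozygote libraries against both WT libraries in CD8 T cells, with dashed lines at the percent over all tested genes (15.6 and 18.6). The NR4A, EGR and DUSP list reaches furthest left and the interferon-stimulated list furthest right.

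Proximal T cell receptor signalling genes showed no such shift in the sum over all CD8 T cells. Of 24 tested members 5 lay lower and 4 higher without overlap, the median was -0.03, and 0 were called (0 at an unadjusted p under 0.05 by edgeR). Trbc2, a constant segment of the T cell receptor β chain, stood at 968, 1284, 1112 and 1114 CPM (log2 fold change -0.03). The list leaned in opposite ways in naive and memory cells, which was not tested. In naive cells 2 of 24 lay lower and 6 higher without overlap (median 0.05), against 16.4% and 17.2% of all tested genes. In memory cells 8 of 24 lay lower and 1 higher (median -0.16), against 14.2% and 16.2%. In either state 0 were called.

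Naive and quiescence genes were lower in 20 of 24, with 8 lower and 3 higher without overlap, a median of -0.21 and 0 called by edgeR. Over all tested genes 48.5% were lower, and 15.6% lay lower and 18.6% higher without overlap. Ccr7 stood at 378 and 290.5 CPM in WT and 181 and 190.0 CPM in YAP1 heterozygote CD8 T cells (log2 fold change -0.86, SE 0.165, edgeR adjusted p = 0.149). DESeq2 gave Ccr7 an adjusted p of 0.0472 there. In naive cells, where its detection helped to set the state, its log2 fold change was -0.63 (adjusted p = 0.410). S1pr1 (-0.66), Klf2 (-0.35) and Btg1 (-0.40), an antiproliferative gene, were lower in both YAP1 heterozygote libraries than in both WT libraries, with edgeR adjusted p from 0.566 to 0.874. Il7r, the interleukin-7 receptor chain that keeps naive cells alive, was -0.10.

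Memory and cytotoxic genes differed little between genotypes in the sum over all CD8 T cells. In the memory list 11 of 23 were lower and 12 higher (median 0.01), and in the effector and cytotoxic list 9 of 22 were lower and 13 higher (median 0.03). Ccl5, a chemokine, stood at 2273, 3470, 2983 and 3210 CPM (log2 fold change 0.09). Il2rb stood at 460, 281, 435 and 296 CPM (-0.04) and Nkg7, a granule protein, at 676, 813, 804 and 743 CPM (0.04). The WT libraries spanned the YAP1 heterozygote values in these 3 genes. Gzma and Gzmb had log2 fold changes of -1.12 and -1.17 (edgeR adjusted p = 0.983 and 0.824), with the few cells described above behind them. In memory cells alone 19 of 23 and 14 of 22 members of these lists were lower (medians -0.14 and -0.16), against 51.0% of all tested genes. In naive cells alone 8 of 13 were lower in each list (medians -0.13 and -0.18), against 50.2%. In either state 0 were called, and the state rule used some of these genes.

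Survival, homing and tissue residence lists had more members lower than higher without overlap, and 0 were called by edgeR. Over all 7899 tested genes 15.6% lay lower in this way and 18.6% higher. The counts were 8 and 2 of 19 for survival and apoptosis (median -0.16), 7 and 2 of 20 for chemokine, adhesion and marrow homing genes (median -0.05), and 4 and 0 of 10 for tissue residence (median -0.25). Lists share members, since Rgs1 stands in 2 of them and Ccr7 in 2. Cxcr4, the receptor that holds cells in the marrow, stood at 200.4 and 194 CPM in WT and 150.0 and 119 CPM in both YAP1 heterozygote libraries (log2 fold change -0.57, edgeR adjusted p = 0.652). Bcl2, a survival factor, was -0.06 and Mcl1 -0.16. Cd69, which retains lymphocytes in tissue and marks recent activation, was 0.15.

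Interferon-stimulated genes leaned the other way, with 0 of 27 lower and 9 higher without overlap (median 0.17) and 0 called. Ifi203 and Samhd1, members of that response, had log2 fold changes of 0.11 and 0.17. Cell cycle genes were higher in 17 of 19 (median 0.29), with 4 above without overlap, where 18.6% of all tested genes were. Within the states 5 of 13 were higher in naive cells (median -0.05) and 11 of 17 in memory cells (median 0.06). Mki67, a proliferation marker, stood at 60.2, 80.5, 62.1 and 174 CPM in all CD8 T cells, high in 1 library. Hmgb2 was 0.15. Heat shock genes, which tissue handling also induces, were lower in 11 of 12 (median -0.19), against 48.5% of all tested genes. Without overlap 3 lay lower and 0 higher, and 1 had an unadjusted p under 0.05 by edgeR. A part of handling was not tested.

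The targeted gene could not be read in these cells. Yap1 and its relative Wwtr1 (TAZ) had 0 UMIs in the CD8 T cells of all 4 libraries, which allows up to 2.14 to 3.52 CPM. Of 25 genes in the Hippo, YAP and myosin list 16 could be tested, with 2 lower and 4 higher without overlap, a median of 0.06 and 0 called. Myh9, the nonmuscle myosin heavy chain named in the series title, stood at 495 and 438 CPM in WT and 538 and 477 CPM in YAP1 heterozygote CD8 T cells (log2 fold change 0.11, SE 0.140, edgeR adjusted p = 0.998), with overlapping groups.

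Against the 137 CD4 T cells of the same libraries (27, 43, 30 and 37 cells), edgeR called 295 of 7206 genes higher in CD8 (4.09%) and 337 lower (4.68%), leaving out genes of the gate. DESeq2 called 385 in all. Eomes, the T-box factor of memory CD8 T cells, stood at 74.9 ± 13.8 CPM in CD8 and 3.83 ± 4.55 CPM in CD4 T cells (SD, n = 4 libraries; log2 difference 4.26, SE 0.477, edgeR adjusted p = 3.43e-07). Among the 10 genes higher in CD8 by the largest differences were also Crtam, an adhesion receptor of cytotoxic cells, at 31.6 ± 1.56 against 3.996 ± 4.796 CPM, and the killer cell receptor Klra7 at 48.4 ± 6.09 against 7.21 ± 9.19 CPM. Car2, Car1 and Mcpt8, erythroid and basophil genes, also stood there.

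Higher in CD4 T cells were Maf, at 281 ± 141 against 13.6 ± 7.32 CPM, the folate receptor family gene Izumo1r at 178 ± 59.9 against 17.6 ± 3.27 CPM, and the inhibitory receptor Ctla4 at 234 ± 145 against 30.1 ± 7.35 CPM. All 9 tested CD4 T cell markers were higher in CD4. So were 7 of 8 dendritic cell markers and 4 of 5 B cell markers, such as H2-Ab1 at 630.4 ± 513 against 79.8 ± 70.5 CPM, so the CD4 gate holds RNA of antigen-presenting cells and its part in these calls was not tested. Of naive and quiescence genes 12 of 24 were higher in CD8 and 1 in CD4, and of AP-1 and immediate early genes 0 of 20 and 8 of 20.

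The genotype difference in CD8 T cells was compared with that in CD4 T cells by an interaction term. It called 0 of 7216 genes in either direction (0%), with 268 at an unadjusted p under 0.05, and 0 by DESeq2. Leaving out each library in library order gave 13, 3, 10 and 10 calls. Vps37b stood at 715, 411, 160 and 149 CPM in CD4 T cells, and its difference between the cell types in the genotype effect was 0.30 (SE 0.291, edgeR adjusted p = 1.00). Tnfaip3 stood there at 1180, 679, 409 and 264 CPM (0.40, SE 0.259, adjusted p = 1.00). Both genes were lower in both YAP1 heterozygote libraries of the CD4 T cells too.

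The same test between states called 11 of 5983 genes (0.184%) whose genotype difference was higher in memory than in naive cells, and 0 (0%) the other way. These included genes of antigen-presenting cells and basophils, and also Ccl3, Tyrobp, Plac8 and Tcf4. Without the 43 cells with RNA of other lineages edgeR called 0 of 5420 genes (211 at an unadjusted p under 0.05), and 6 of the 11 genes had served to pick those cells. Leaving out each library in library order gave 7, 39, 30 and 31 calls.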

How the data were processed

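The deposited files are UMI count matrices (genes by barcodes) of the 4 libraries. Per the submitters' processing notes, Cell Ranger 3.0.0 and Seurat 4.3.0 were used with build GRCm38 (mm10), while the file headers name Cell Ranger 5.0.0. The authors' counts were used as deposited, with no map to cell types. The members and gene lists were chosen with earlier results of these data known.

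UMIs were summed per library over CD8, naive, memory or CD4 T cells and tested with edgeR 4.0.16 (quasi-likelihood, TMM factors, filterByExpr, Benjamini-Hochberg). DESeq2 1.42.0, R 4.3.3, Python 3.11.15 and scanpy 1.11.5 (Scrublet doublet calls, kept in the main analysis) gave the alternatives. CPM is UMIs per 1e6 of the summed cells. The genotype fits in CD8, memory and naive cells and the genotype by state fit were tested on simulated counts. Of genes given a 2-fold difference there, 52.2% (CD8), 46.3% (memory), 14.9% (naive) and 17.9% (genotype by state) were recovered. The CD8 against CD4 fit and the genotype by cell type fit were not tested on such counts. Intervals and limits (95%, and 3 counts for a count of 0) cover counting error only.

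Named were called genes whose groups did not overlap and whose mean log2 CPM was 5 or more (up to 12 per direction), up to 4 members of each list (called, then highest), 12 genes per direction for memory against naive (at least 100 CPM) and 10 for CD8 against CD4, plus those said to be named after their values were seen. Gene positions are GENCODE M21, which matched 32409 of 32544 genes. Promoter windows are from RefSeq; Vps37b, Rgs1, Icos and Ccr7 have no entry there. Results for some genes are not reported here.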

Additional observations from a re-analysis of the deposited data

Results flagged for a closer look

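The genotype difference (YAP1 heterozygote minus WT) was larger in memory than in naive CD8 T cells for 11 genes by edgeR's interaction term, and each gap is a log2 value. Antigen-presenting genes gave 5.23 for H2-Ab1, 6.52 for Cd74, 7.59 for H2-Aa, 5.53 for H2-Eb1 and 12.6 for the dendritic lectin Cd209a. Basophil proteases gave 9.62 for Mcpt8 and 11.1 for Prss34. The chemokine Ccl3 gave 3.81, the adaptor Tyrobp 1.92, Plac8 1.47 and the transcription factor Tcf4 5.19. Prss34 stood at 1540.0 CPM in memory cells of YAP1 heterozygote replicate 1 and at 378 CPM in naive cells of WT replicate 2, and between 2.29 and 11.95 CPM in the other sums. For H2-Aa, H2-Ab1 and H2-Eb1 together, 1 cell held 278 of 305 UMIs of naive cells in WT replicate 1. Another held 108 of 124 UMIs of memory cells in YAP1 heterozygote replicate 2. Without the 43 cells with RNA of other lineages, an alternative added after the data were seen, 0 of the 5420 tested genes were called; the cells were picked partly by 6 of these 11 genes, so their loss follows from the choice. Without cells over 3 times the median UMIs, edgeR still called Ccl3, Cd74, Tyrobp and Tcf4 among these. DESeq2 called 4 genes.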

How the results depend on the processing

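The genotype difference in the share of CD8 T cells reversed when cells were thinned to 1500 UMIs (0.105 percentage points), and ranged from -0.376 to 0.28 when 1 library was left out. The difference in the memory share ranged from -0.0342 to 7.05 points over those fits. The count of genes called in all CD8 T cells was 8 with DESeq2, 62 with no filter on low counts, 86 with the replicate block, 22 with at least 2 CD8 counts, 0 with doublets left out (403 at an unadjusted p under 0.05), and 1 without the top cell of each gene, without cells over 3 times the median UMIs or without cells with RNA of other lineages (the last 2 added after seeing the data). In memory cells it was 32 with no filter, 11 with the block, 7 with at least 2 CD8 counts and 8 with doublets left out. In naive cells it was 6 with DESeq2, 34 with no filter, 42 with the block, 24 without the top cell, 40 with at least 2 CD8 counts, 23 with doublets left out and 4 without cells with RNA of other lineages. Leaving out 1 library gave 0 to 111 calls in CD8, 18 to 40 in memory and 22 to 101 in naive cells, 7 to 39 for the genotype by state difference, 441 to 559 for CD8 against CD4 and 3 to 13 for the genotype by cell type difference. DESeq2 gave 4 for the state difference and 385 for CD8 against CD4; without cells with RNA of other lineages the state difference gave 0.

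None of the 19 genes followed in naive cells and the 13 followed in memory cells reversed under the alternatives run there. In all CD8 T cells these log2 differences reversed: Cd74 (-2.12, to 0.135), Dusp2 (0.0125), Ptprc (0.0163) and Trbc2 (0.0378) without cells with RNA of other lineages. Without cells over 3 times the median they were Dusp2 0.0411, Il2rb 0.0313, Hmgb2 -0.0388, Ptprc 0.0113 and Trbc2 0.0156. Dusp1 was -0.0389 with doublets left out, and Nkg7 -0.0316 with at least 2 CD8 counts. Leaving out 1 library gave Dusp1 -0.263 to 0.519, Dusp2 -0.268 to 0.199, Il7r -0.486 to 0.2005, Ccl5 -0.181 to 0.419, Nkg7 -0.089 to 0.167, Il2rb -0.368 to 0.353, Gzma -2.01 to 2.04, Cd69 -0.107 to 0.357, Ifi203 -0.0118 to 0.205, Samhd1 -0.00091 to 0.36, Mki67 -0.211 to 1.25, Ptprc -0.14 to 0.0736, Trbc2 -0.222 to 0.174 and Bcl2 -0.149 to 0.011. The cause was not tested.

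The labels state no pairing of same-numbered libraries, which also share the sex of their cells. With the replicate block, edgeR called Vps37b and Rgs1 (adjusted p = 0.00189 each), Tnfaip3 and Junb (0.0289 each) and Dennd4a (0.037) in memory cells. Same-numbered libraries' deviations from their group means correlated at 0.206 over 7899 genes, and at 0.113 without X and Y chromosome genes. The depth is 853148 to 1400302 UMIs per library for all CD8 T cells.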

Other observations

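Further integrin, regulator and killer cell genes were higher in memory than in naive CD8 T cells. Itga4, the partner of Itgb1 in VLA-4, stood at 443 ± 44.8 CPM in memory and 260 ± 19.3 CPM in naive CD8 T cells (SD, n = 4 libraries), higher in memory in all 4 libraries. Ikzf2 (Helios), a zinc finger factor, averaged 238 ± 31.0 CPM in memory and 40.1 ± 29.8 CPM in naive cells. Fasl, the death ligand, averaged 67.9 ± 26.6 and 1.11 ± 2.21 CPM. Tbx21 (T-bet) was low in both, at 40.5 ± 12.7 and 2.30 ± 1.80 CPM, while Eomes belongs to the state rule. Klrb1c (NK1.1) averaged 62.8 ± 24.5 CPM in memory and 0.365 ± 0.73 CPM in naive cells. These genes were named after their values were seen, and the states were set from the same cells, so the values are a description.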
